A study of Homo sapiens with 12 samples.

Results

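Dicer mutation 1 was compared with Dicer mutation 2 in MDA-MB-231 cells. This established line comes from a breast cancer that lacks hormone receptors and HER2 amplification (triple-negative). The 6 libraries were those whose treatment label names a plasmid with mutation 1 (3 libraries) or mutation 2 (3 libraries), out of 12 libraries in the series. All 6 came from cells given plasmid DNA with Lipofectamine 3000, and poly(A)-selected RNA was sequenced. The other libraries, 3 with wild-type Dicer and 3 with mutation 3, are used only to place levels. The labels number the mutations without naming them, and an empty-plasmid control was not analysed here. Sample titles begin with a different, unexplained letter code in the mutation 1 and the mutation 2 group, so whatever it stands for cannot be told apart from the mutation; the sequencing run and lane in the titles are the same for all. The labels do not say whether the 3 libraries of a group came from separate cultures or from 1 clone, so the mutation and the culture or clone that carried it cannot be told apart. Replicate numbers are names only, and p-values reflect only how much these libraries vary, variation that could be technical.

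Dicer is the cytoplasmic ribonuclease that cuts hairpin precursors into mature microRNAs, which Argonaute proteins then hold. Its paired RNase III domains each cut a different strand of the hairpin. A mature microRNA pairs through its seed with messenger RNAs and lowers their translation and stability, and in breast epithelium the let-7 and miR-200 families are known for holding back growth and mesenchymal genes.

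Expression differed widely between the 2 mutants. Of 14256 genes tested, 11917 (83.6%) were called different at an adjusted p under 0.05, 5869 (41.2%) higher with mutation 1 and 6048 (42.4%) lower. At least 2-fold apart were 4832 called genes (33.9%), of which 2289 (16.1%) were higher with mutation 1 and 2543 (17.8%) lower. For 11902 genes (83.5%) every library of one group lay above every library of the other. A test against a 1.5-fold difference in place of no difference called 6590 genes, 3208 higher and 3382 lower. The median log2 fold change (mutation 1 minus mutation 2, as everywhere below) was -0.02, and 90% of genes lay between -2.01 and 2.06. Spearman correlations over genes, which are not independent replicates, were 0.997 to 0.998 within each group and 0.913 to 0.915 between the groups. The 6 libraries held 13507341 to 16789948 counts. Mutation 2 replicate 1 lay slightly apart from its group, with a chi-square per degree of freedom of 3.22 and 3.47 against the other mutation 2 libraries where these gave 1.56 against each other. Without it 12020 genes were called. Wild-type replicate 1 stood apart from the other wild-type libraries (Spearman 0.943 with each, beside 0.998 between those). It lay nearer to the mutation 2 libraries (0.973 to 0.974). Wild-type levels are therefore given library by library.

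**Figure D1:**
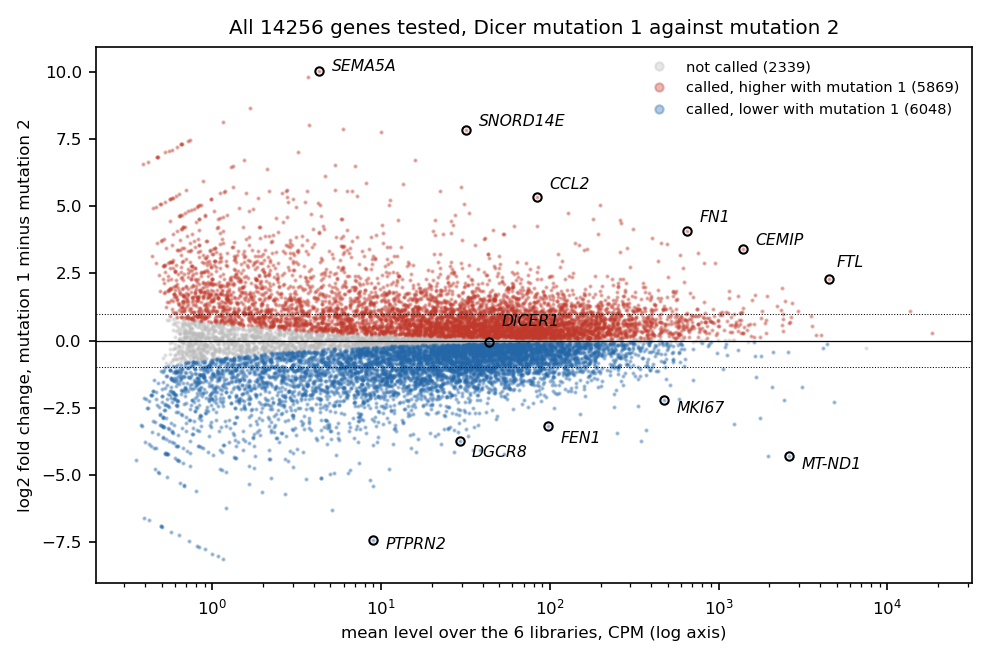
Log2 fold change of mutation 1 minus mutation 2 (vertical) against the mean level over the 6 libraries in CPM (log axis) for each of the 14256 genes tested. Red and blue points were called higher and lower with mutation 1, grey points were not called, dotted lines mark 2-fold, and circled genes are named in the text; DICER1 lies at -0.06 and FN1 at 4.09.

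DICER1 (ENSG00000100697, chromosome 14, 95086228 to 95158010, minus strand), the gene the plasmids carry, held 42.7, 41.4 and 44.4 CPM (counts scaled to library totals multiplied by trimmed-mean factors) in the mutation 1 libraries and 43.7, 44.8 and 45 CPM in the mutation 2 libraries. These factors were 0.9276 to 0.9362 for mutation 1 and 1.07 to 1.081 for mutation 2, and the overlap of the groups depends on them. On this scale the ranges overlapped, and the difference did not pass the test (log2 fold change -0.06, SE 0.06, adjusted p = 0.347). Gene-level counts include transcripts of the plasmid and of the genome alike, so this level does not check the transfection. With library totals as the only scaling it was called lower (-0.26, adjusted p = 1.04e-05), a setting that moves the median of all genes from -0.02 to -0.23.

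The markers of the cell line were present. All 10 MDA-MB-231 markers passed the filter on low counts, among them VIM (vimentin, an intermediate filament) at 1490 ± 47.4 CPM (mean ± SD, n = 3) with mutation 1 and 721 ± 8.96 with mutation 2. CAV1, the caveola protein caveolin 1, lay at 835 ± 13.8 and 826 ± 33.6 CPM and was not called, though library totals alone called it lower (-0.19). The receptors ESR1 and PGR did not pass the filter, and ERBB2 lay at 87.3 ± 4.12 and 94.6 ± 3 CPM. Of 14 markers of blood, vessel, fibroblast, erythroid, liver and muscle cells, only CD14, a lipopolysaccharide co-receptor, passed the filter. CD14 held 26.5, 21.8 and 25.4 CPM with mutation 1 and 5.88, 9.23 and 7.11 with mutation 2. Listed at 0 in all 6 libraries were the T-cell marker CD3E, the endothelial CDH5, the fibroblast DCN and the muscle MYH11. The summed level of the 14 ran from 22.8 to 27 CPM with mutation 1 and from 7.13 to 10.4 with mutation 2, nearly all of it CD14. Its part in the other differences was not tested.

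Genes of the microRNA pathway differed in both directions. Of 24 tested, 7 were higher with mutation 1, 12 lower and 5 not called, and the median log2 fold change was -0.10 beside -0.02 over all genes. The share called was 79.2%, beside 83.6% of all genes. Of the 24, 3 were at least 2-fold lower and none at least 2-fold higher, 12.5% beside 33.9% of all genes. DGCR8 (ENSG00000128191, chromosome 22, 20080232 to 20111877), the RNA-binding partner of Drosha in the nuclear step before Dicer, held 4.35, 3.75 and 4.23 CPM with mutation 1. It held 51, 56 and 55.8 CPM with mutation 2, so the groups lay 13.2-fold apart (log2 fold change -3.73, SE 0.09, adjusted p = 5.55e-140). Mutation 3 libraries held 19 to 20.2 CPM and wild-type libraries 35.5, 60.4 and 60.4, so every other library lay above mutation 1.

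The other nuclear factors were also lower with mutation 1. DROSHA, the nuclear ribonuclease that frees the hairpin, lay at 59.1 ± 1.65 CPM with mutation 1 and 102 ± 0.956 with mutation 2. DDX5, an RNA helicase that assists Drosha, lay at 196 ± 7.32 and 485 ± 7.15 CPM, and the related DDX17 at 137 ± 1.78 and 151 ± 6. XPO5, the exporter of hairpins, lay at 81 ± 4.85 and 126 ± 3.31 CPM, and its partner RAN at 272 ± 3.09 and 391 ± 3.56. Around Dicer itself the direction was mixed. TARBP2, a double-stranded RNA-binding partner of Dicer, was lower at 8.82 ± 0.858 against 22.2 ± 1 CPM (log2 fold change -1.33). PRKRA, the other such partner, was called higher at 35.5 ± 2.48 against 30.8 ± 2.06 CPM, and lost that call under library totals alone (log2 fold change 0.00, adjusted p = 0.981).

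Argonautes and their effectors split. AGO2, the Argonaute that can cut its target, was higher with mutation 1, at 54, 50.5 and 51 CPM against 26.6, 28.3 and 27.1. AGO1 was lower (29.6 ± 2.42 against 41.4 ± 1.21 CPM), as was AGO4 (14.1 ± 0.861 against 19.2 ± 1.22), and AGO3 lay at 21.9 ± 1.22 and 19.7 ± 0.697 without a call (adjusted p = 0.0558). AGO3 was called higher without mutation 1 replicate 3 (0.21, adjusted p = 0.0217) and with DESeq2 size factors (0.17, adjusted p = 0.0319). Of the GW182 scaffolds that recruit deadenylases, TNRC6A (31.1 ± 1.49 against 55.3 ± 1.47 CPM) and TNRC6B (23.7 ± 0.224 against 32.1 ± 0.637) were lower. TNRC6C was higher (33.4 ± 1.78 against 27.4 ± 2.53 CPM), a call that library totals alone did not keep (0.09, adjusted p = 0.228). SND1, a nuclease of the silencing complex, was higher at 752 ± 22.5 against 386 ± 4.77 CPM. The enzymes that add tails to small RNAs were higher: TENT2 lay at 57 ± 0.499 against 31.5 ± 2.27 CPM and TUT7 at 38 ± 1.09 against 23.6 ± 1.97. DIS3L2, the exonuclease that degrades uridylated precursors, was lower at 23.5 ± 0.658 against 33.6 ± 2.22 CPM.

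All 13 tested transcripts that host microRNA hairpins were called (83.6% of all genes were), 8 lower with mutation 1 and 5 higher, with a median log2 fold change of -0.97. At least 2-fold lower were 6 and at least 2-fold higher 2. Of the lower hosts, MIR3142HG, MIR17HG, MIRLET7BHG and MIR22HG held at most 0.627 CPM in any mutation 1 library. They passed the filter on low counts through their mutation 2 levels, so the filter itself favoured their direction. These counts and the median rest partly on them. Mature microRNAs were not measured in these libraries. The mature sequences below come from RefSeq (GRCh38.p14), read 5′ to 3′ with the seed (bases 2 to 8) in capitals, and are shown because several lower hosts share a seed. The seed AAAGUGC is held by 2 microRNAs of MIR17HG and 1 of MCM7, and AUUGCAC by 1 of each.
hsa-miR-17-5p in MIR17HG: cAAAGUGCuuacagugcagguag
hsa-miR-20a-5p in MIR17HG: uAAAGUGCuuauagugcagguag
hsa-miR-106b-5p in MCM7: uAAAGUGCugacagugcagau
hsa-miR-92a-3p in MIR17HG: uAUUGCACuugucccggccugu
hsa-miR-25-3p in MCM7: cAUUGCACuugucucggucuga
hsa-miR-19a-3p in MIR17HG: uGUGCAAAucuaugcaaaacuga
hsa-miR-19b-3p in MIR17HG: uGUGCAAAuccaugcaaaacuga
hsa-let-7a-5p in MIRLET7BHG: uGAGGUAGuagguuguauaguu
hsa-let-7b-5p in MIRLET7BHG: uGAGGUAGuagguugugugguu
hsa-miR-146a-5p in MIR3142HG: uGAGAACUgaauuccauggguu
Hosts that were higher with mutation 1 carry other seeds.
hsa-miR-21-5p in VMP1: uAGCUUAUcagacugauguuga
hsa-miR-335-5p in MEST: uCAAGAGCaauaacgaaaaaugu
hsa-miR-221-3p in MIR222HG: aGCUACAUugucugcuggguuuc
hsa-miR-222-3p in MIR222HG: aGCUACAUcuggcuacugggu

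MIR3142HG (chromosome 5, 160438594 to 160487426), which holds the hairpin of miR-146a, a known brake on NF-kB signalling, had 0.207, 0.263 and 0.47 CPM with mutation 1. With mutation 2 it had 9.27, 9.74 and 10.1 CPM (log2 fold change -4.95, SE 0.25, adjusted p = 1.1e-60). MCM7, a helicase subunit whose intron holds miR-25 and miR-106b, lay at 258 ± 9.1 CPM against 505 ± 7.79. The next 3 hosts are outside the naming rule and were picked after their values were seen. MIR17HG, host of the miR-17-92 cluster, lay at 0.241 ± 0.153 against 1.87 ± 0.0924 CPM, and MIRLET7BHG, host of let-7a-3 and let-7b, at 0.454 ± 0.219 against 2.62 ± 0.318. These are low levels, 10 and 90 counts in all for MIR17HG. MIR22HG, host of miR-22, was at 0 counts in all with mutation 1 and 47 with mutation 2. On the other side, VMP1, an autophagy gene whose transcript runs into miR-21, lay at 206 ± 4.34 against 107 ± 4.21 CPM. MEST, an imprinted gene that holds miR-335, lay at 55.2 ± 1.43 against 22.2 ± 2.63 CPM.

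Messenger RNAs known as targets of let-7 and miR-200 differed in both directions. Of 26 let-7 targets, 10 were higher with mutation 1, 12 lower and 4 not called (median -0.16). The share called was 84.6%, beside 83.6% of all genes. CDC25A, the phosphatase that starts S phase, fell in this list from 53.6, 59.7 and 60.9 CPM with mutation 2 to 5.59, 5.8 and 6.42 with mutation 1. CCND1, cyclin D1, was also lower, at 267 ± 2.61 against 712 ± 18.8 CPM, whereas MYC (389 ± 13.5 against 200 ± 2.66) and THBS1, a matrix glycoprotein (3610 ± 80.4 against 1310 ± 26.2), were higher. Of 18 miR-200 targets, 8 were higher, 8 lower and 2 not called (88.9% called), with a median of 0.01 that turned to -0.20 under library totals alone. SEC23A, a coat protein of secretory vesicles, was higher at 209 ± 9.74 against 79.4 ± 3.29 CPM, and RND3, a small GTPase that acts on the actin cytoskeleton, lower at 36.6 ± 1.99 against 84.1 ± 1.23.

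The largest differences were between silence and expression. SEMA5A (chromosome 5, 9035026 to 9546075), a guidance receptor ligand, held 9.11, 8.17 and 8.46 CPM with mutation 1 and was listed at 0 in all mutation 2 libraries, at least 45.5-fold higher against a floor of 3 counts per library. Lipoprotein lipase (LPL) held 19, 20.3 and 20.6 CPM against 0.0692, 0.0637 and 0.111 (log2 fold change 7.77, SE 0.25). ADGRE1, an adhesion receptor known from macrophages, had 501 counts with mutation 1 and 2 with mutation 2, a ratio of 284 with an exact 95% counting interval of 78.3 to 2.35e+03. The mutation 3 libraries held 0, 0.194 and 0.147 CPM of SEMA5A, 1.55, 1.68 and 1.83 of LPL, and 0 of ADGRE1 in all 3.

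Others of the 12 largest increases were GALNT14, a glycosyltransferase that starts mucin-type O-glycans (10.6 ± 1.29 against 0.107 ± 0.045 CPM), PHF1, an accessory subunit of Polycomb repressive complex 2 (9.22 ± 0.725 against 0.127 ± 0.0733), and BAHCC1, a chromatin reader (58.6 ± 1.76 against 1.12 ± 0.198). BAHCC1 lay at 29.1, 57.1 and 56.9 CPM in wild type and 40.6 in mutation 3 replicate 1, so that mutation 2 was the low group. KRT81, a hair keratin with near-identical copies whose counts are therefore uncertain, showed 31.6 ± 3.88 against 0.295 ± 0.0649 CPM. In wild type KRT81 lay at 166, 1520 and 1490 CPM, so both mutants were below every wild-type library. SNORD14E, a small nucleolar RNA in an intron of HSPA8, showed 63.5 ± 6.32 against 0.269 ± 0.159 CPM, and counting did not separate it from reads of its host.

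The largest decreases with mutation 1 included PTPRN2 (chromosome 7, 157539056 to 158587788), a phosphatase-like protein of secretory granules, at 0, 0.198 and 0.0783 CPM against 19, 15.5 and 18.9. PTPRN2 was at 0 in all 3 mutation 3 libraries and at most 0.938 CPM in wild type, so here mutation 2 was the high group. For the next 3 genes the wild-type and mutation 3 levels are given beside both groups. RIOX1, a nucleolar oxygenase, lay at 0.396 ± 0.0754 against 17.5 ± 1.73 CPM, with 19.8, 29.4 and 28 in wild type. PRMT6, an arginine methyltransferase of histone H3, lay at 0.441 ± 0.113 against 16.8 ± 0.396 CPM, with 18, 19.1 and 19.8 in wild type. TIGAR, a fructose bisphosphatase that slows glycolysis, lay at 0.328 ± 0.0609 against 10.2 ± 0.387 CPM, with 13, 13.8 and 13.1 in wild type. Mutation 3 libraries held 3.24 to 4.64 CPM of RIOX1, 1.1 to 2.17 of PRMT6 and 0.513 to 0.929 of TIGAR. For these 3 genes mutation 3 thus also lay below every wild-type library. PIK3R3, a regulatory subunit of PI3 kinase (0.0889 ± 0.1 against 5.32 ± 0.709 CPM), and LCMT2, a tRNA-modifying enzyme (0.447 ± 0.154 against 12.7 ± 0.795), were also among the largest decreases.

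By CPM, the largest increases were in abundant transcripts. EEF1A1, the elongation factor that brings tRNA to the ribosome, held 18400, 19000 and 18200 CPM with mutation 1 and 8510, 9000 and 8270 with mutation 2. FTL, the ferritin light chain, held 7460, 7340 and 7550 CPM against 1530, 1540 and 1530, and both have processed pseudogenes that make their counts uncertain. CEMIP, which degrades hyaluronan, held 2590, 2570 and 2520 CPM against 228, 242 and 244 (log2 fold change 3.42, SE 0.03). CEMIP lay at 490 to 499 CPM in mutation 3 and at 530, 15.3 and 17.7 in wild type, so mutation 1 was above every other library.

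Genes of DNA replication were lower with mutation 1 almost throughout. Of 53 tested, 51 were called lower (42.4% of all genes were) and 2 higher, 30 were at least 2-fold lower and none at least 2-fold higher, and the median log2 fold change was -1.15. FEN1 (ENSG00000168496, chromosome 11, 61792637 to 61797244), the nuclease that trims Okazaki fragments, held 21.6, 17.6 and 18.7 CPM with mutation 1 and 172, 176 and 177 with mutation 2. The groups lay 9.07-fold apart with no overlap (log2 fold change -3.18, SE 0.05, adjusted p = 4.16e-195). PCNA (chromosome 20, 5114953 to 5126626), the sliding clamp, held 62.4, 64.9 and 60.7 CPM against 258, 260 and 262. Subunits of the MCM helicase were lower too, MCM3 at 108 ± 3.4 against 386 ± 6.64 CPM and MCM6 at 54.4 ± 1.59 against 201 ± 5.32. UHRF1, which carries DNA methylation through replication, lay at 31.3 ± 0.677 against 179 ± 10.2 CPM. The 2 exceptions were RFC1, the largest clamp loader subunit (111 ± 2.76 against 89.5 ± 4.07 CPM), and CDT1, the licensing factor (73.3 ± 4.44 against 57.4 ± 0.989). In bulk RNA, fewer cells in a phase and less RNA per cell cannot be told apart.

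In mutation 3, FEN1 lay at 47.1 to 47.8 CPM and MCM6 at 49.1 to 54.7, while wild-type libraries held 186, 215 and 216 CPM of FEN1 and 186, 130 and 130 of MCM6.

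The promoters of replication genes (250 bases before to 50 after the start, RefSeq, GRCh38.p14) were searched on both strands for TTTGGCGC or TTTCGCGC, letters that E2F factors are known to bind. A match was present in 12 of the 45 members that have a promoter sequence (26.7%), in 2.0% of 10491 promoters of tested genes and in 1.2% of 27305 promoters of all genes. Among the 25 members at least 2-fold lower whose promoter was searched, 10 held one. FEN1 and PCNA held none, which says only that these letters are not in that window. MCM6 held 4 matches, pairs that overlap on opposite strands, and MCM3 held 1; both are shown with the matches in capitals.
MCM6 promoter, chr2:135876394-135876693, minus strand: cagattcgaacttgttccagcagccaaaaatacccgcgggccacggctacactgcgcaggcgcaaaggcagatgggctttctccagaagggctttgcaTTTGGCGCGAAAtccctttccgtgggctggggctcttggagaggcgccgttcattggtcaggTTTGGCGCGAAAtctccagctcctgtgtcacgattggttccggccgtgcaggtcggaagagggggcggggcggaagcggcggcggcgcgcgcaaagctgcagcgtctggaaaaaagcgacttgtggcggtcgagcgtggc
MCM3 promoter, chr6:52284693-52284992, minus strand: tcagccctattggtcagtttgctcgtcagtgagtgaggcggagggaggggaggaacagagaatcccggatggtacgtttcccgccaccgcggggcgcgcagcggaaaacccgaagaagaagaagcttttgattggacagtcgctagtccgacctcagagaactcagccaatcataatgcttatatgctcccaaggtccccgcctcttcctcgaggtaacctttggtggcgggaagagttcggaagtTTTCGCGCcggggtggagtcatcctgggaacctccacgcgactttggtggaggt

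DNA repair genes followed the replication genes. Of 20, 19 were lower with mutation 1 and 1 higher, 13 at least 2-fold lower, with a median of -1.14. BRCA1, which guides repair by homologous recombination, held 11.7, 11.5 and 11.9 CPM against 47.5, 49.2 and 48.6. RBBP8, which starts end resection, lay at 26.2 ± 1.47 against 94.1 ± 2.41 CPM, and XRCC2, a gene of homologous recombination, at 16.4 ± 1.26 against 46.1 ± 0.631. RAD54L, a recombination motor protein, was the 1 higher member, at 41.6 ± 1.93 against 31.6 ± 1.72 CPM.

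Mitotic genes were split. Of 38 G2/M genes, 24 were lower with mutation 1, 10 higher and 4 not called, with a median of -0.33. Among them 18.4% were at least 2-fold apart, beside 33.9% of all genes. MKI67 (chromosome 10, 128096659 to 128126385), the proliferation antigen Ki-67, held 170, 166 and 169 CPM against 805, 762 and 796 (log2 fold change -2.23, SE 0.03). The kinetochore genes CENPE (48.6 ± 2.45 against 126 ± 3.42 CPM) and CENPF (247 ± 3.92 against 532 ± 7.43) were lower in the same way. UBE2C, which feeds the anaphase-promoting complex, was the 1 member at least 2-fold higher, at 385, 387 and 397 CPM against 183, 169 and 179. ANLN, a scaffold of the cytokinetic ring (809 ± 20.6 against 478 ± 1.78 CPM), and CDK1, the mitotic kinase (237 ± 12.5 against 141 ± 4.75), were also higher.

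CDK inhibitors and p53 target genes went both ways, with 10 of 22 higher, 8 lower and 4 not called. The share called was 81.8%, beside 83.6% of all genes. The median was 0.11 and became -0.10 under library totals alone. MDA-MB-231 carries a mutant p53. GADD45A, a stress sensor (203 ± 7.26 against 41.5 ± 1.23 CPM), BBC3, the death inducer PUMA (58.3 ± 1.54 against 8.18 ± 0.606), and CDKN1A, p21 (104 ± 2.06 against 56.2 ± 1.42), were higher. The CDK4 and CDK6 inhibitor CDKN2C was lower at 19.4 ± 0.716 against 74.9 ± 3.73 CPM, as were SESN1, a nutrient sensor (1.06 ± 0.22 against 8.22 ± 0.846), and PPM1D, a phosphatase that turns p53 off (2.97 ± 0.546 against 13.7 ± 0.541).

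**Figure D2:**
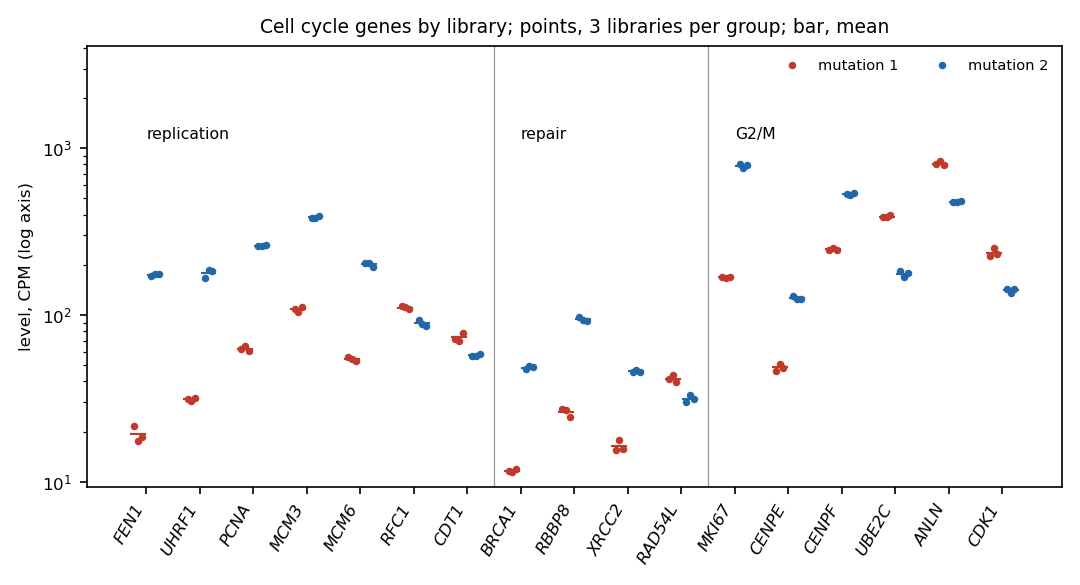
Level of replication, repair and G2/M genes in each library, in CPM on a log axis; points are the 3 libraries of mutation 1 (red) and mutation 2 (blue), and bars their means. FEN1 sits between 17.6 and 21.6 CPM with mutation 1 and between 172 and 177 with mutation 2, whereas RFC1, CDT1, RAD54L, UBE2C, ANLN and CDK1 lie higher with mutation 1.

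Mesenchymal and epithelial markers were both mostly higher with mutation 1, where 41.2% of all genes were higher. Of 23 mesenchymal markers tested, 19 were higher, 2 lower and 2 not called, with 9 at least 2-fold higher, none at least 2-fold lower and a median of 0.85. FN1 (ENSG00000115414, chromosome 2, 215360440 to 215436172), fibronectin, held 1260, 1230 and 1220 CPM with mutation 1 and 73.7, 75.6 and 69.1 with mutation 2. That was 17-fold apart (log2 fold change 4.09, SE 0.04, adjusted p = 3.24e-284), and mutation 3 held 191 to 200 CPM. PDGFRB, a receptor for platelet-derived growth factor, held 75.3, 75 and 83.3 CPM against 8.58, 7.64 and 8.89. LOX, which cross-links collagen (174 ± 5.92 against 32.6 ± 0.796 CPM), TNC, tenascin C (410 ± 12.5 against 130 ± 3.41), and COL1A1, a fibrillar collagen chain (33.7 ± 1.4 against 12.6 ± 1.76), were higher as well. The 2 lower members moved little: AXL, a receptor kinase, lay at 1590 ± 21.9 against 1670 ± 28.8 CPM and FBN1, fibrillin, at 10.7 ± 1.1 against 12.5 ± 0.477. Both calls were lost in the fit of all 12 libraries and without single libraries of either group, for example without mutation 1 replicate 1 (AXL adjusted p = 0.0609, FBN1 adjusted p = 0.25).

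Of 27 epithelial markers tested, 20 were higher with mutation 1 and 7 lower, 10 at least 2-fold higher and 1 at least 2-fold lower, with a median of 0.88. The wild-type libraries differ widely among themselves, and with them in the fit only 11 of the 20 were called higher. CDH1 (chromosome 16, 68737225 to 68835548), E-cadherin, held 11.9, 11.2 and 9.4 CPM with mutation 1 and 1.18, 0.573 and 0.611 with mutation 2. MUC1, a membrane mucin, held 40.7, 37.3 and 38.8 CPM against 2.28, 2.93 and 2.39 (log2 fold change 3.94, SE 0.11). SPINT1, an inhibitor of membrane proteases (71.1 ± 0.937 against 13.1 ± 1.2 CPM), TJP3, a tight junction scaffold (16.4 ± 2.31 against 1.98 ± 0.549), and CLDN7, a claudin (49.3 ± 0.747 against 16.3 ± 1.09), were higher. Its 7 lower members included TJP1 (1.47 ± 0.53 against 3.44 ± 0.617 CPM), a tight junction scaffold as well, and KRT7, a simple-epithelial keratin (436 ± 15.1 against 557 ± 9.3).

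Transcription factors of the epithelial-mesenchymal transition were mixed: of 7 tested, 4 were higher, 2 lower and 1 not called. SNAI1 (chromosome 20, 49982999 to 49988886), a repressor of CDH1, held 18.1, 19.4 and 19.9 CPM with mutation 1 and 1.04, 1.59 and 1.89 with mutation 2 (log2 fold change 3.63, SE 0.15). So SNAI1 and CDH1 were high in the same 3 libraries. SNAI2 lay at 24.7 ± 2.25 against 17 ± 0.478 CPM. The miR-200 target ZEB1 lay at 36.6 ± 0.699 and 39.5 ± 0.344 CPM without a call (adjusted p = 0.0823), and library totals alone called it lower (-0.32). ZEB2 was lower at 5.29 ± 0.737 against 8.75 ± 0.495 CPM. SOX9, a progenitor factor, was lower at 20 ± 0.361 against 82.8 ± 1.58 CPM.

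Of 15 integrin subunits, 10 were higher, 3 lower and 2 not called (median 0.85, 40.0% at least 2-fold apart beside 33.9% of all genes). ITGB4, the hemidesmosome subunit, held 1080, 1020 and 1080 CPM against 332, 354 and 343, and ITGB1, partner of most alpha subunits, held 1950, 1970 and 1920 against 860, 847 and 844. The collagen receptor subunit ITGA2 was lower at 70.8 ± 0.781 against 101 ± 4.35 CPM, a call the fit of all 12 libraries did not make (adjusted p = 0.318). Of 19 proteases and inhibitors, 12 were higher, 5 lower and 2 not called (median 0.53). Among them 42.1% were at least 2-fold apart, beside 33.9% of all genes. PLAUR, the urokinase receptor (215 ± 3.29 against 78.3 ± 2.53 CPM), and CTSB, cathepsin B (518 ± 12.3 against 180 ± 3.73), were higher, and MMP1, interstitial collagenase, was lower at 0.113 ± 0.105 against 2.62 ± 0.159.

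Secreted factors of the TGF-beta family moved in opposite directions. Of 25 pathway genes, 15 were higher with mutation 1, 9 lower and 1 not called (median 0.33). Among them 40.0% were at least 2-fold apart, beside 33.9% of all genes. INHBA, the activin subunit, held 50, 47.2 and 49.6 CPM against 3.11, 3.12 and 2.89, and TGFB1 held 255, 242 and 265 against 67.9, 68.2 and 66.9. BMP4 (chromosome 14, 53949736 to 53958761) held 39.3, 40.8 and 38.5 CPM against 263, 256 and 266 (log2 fold change -2.73, SE 0.04). ID1, a known BMP target, was lower together with BMP4, at 30.9 ± 1.41 against 91.1 ± 1.01 CPM. Of 24 YAP/TAZ targets, 14 were higher and 10 lower, and under library totals alone 8 were higher. Among these targets 29.2% were at least 2-fold apart, beside 33.9% of all genes. CCN1 was higher (3920 ± 51 against 1500 ± 21.1 CPM) and CCN2, its matricellular relative, lower (81.2 ± 0.736 against 151 ± 3.15).

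Among growth factor genes, 11 of 21 EGF receptor and MAPK feedback genes were higher, 8 lower and 2 not called (median 0.42). Called were 90.5% of the list, beside 83.6% of all genes, and 42.9% were at least 2-fold apart, beside 33.9%. The EGF receptor ligand AREG (chromosome 4, 74445134 to 74455009), amphiregulin, held 581, 578 and 598 CPM with mutation 1 and 34.8, 33 and 30 with mutation 2 (log2 fold change 4.17, SE 0.04, adjusted p = 1.64e-270). Epiregulin (EREG) was higher at 85.5 ± 5.55 against 19 ± 0.26 CPM, and the ligand TGFA lower at 81.7 ± 2.34 against 192 ± 4.03. EGFR itself lay at 400 ± 2.59 against 260 ± 4.8 CPM. JUN, an AP-1 subunit, was lower at 71.3 ± 2.93 against 247 ± 6.18 CPM.

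Interferon-stimulated genes differed in both directions. Of 43 tested, 25 were lower with mutation 1, 14 higher and 4 not called, 15 at least 2-fold lower and 9 at least 2-fold higher, with a median of -0.42. Called were 90.7% of the list, beside 83.6% of all genes, and 55.8% were at least 2-fold apart, beside 33.9%. IFIT2 (chromosome 10, 89283694 to 89309276), which binds viral RNA, held 4.35, 4.81 and 4 CPM with mutation 1 and 46.8, 41.9 and 40.3 with mutation 2 (log2 fold change -3.28, SE 0.09, adjusted p = 4.42e-118). IFIT3 (chromosome 10, 89327894 to 89340971), which stabilises IFIT1 on RNA, held 20.9, 19.1 and 20.7 CPM against 90.2, 84.6 and 87.8. In wild type IFIT2 lay at 41.9, 51.7 and 51.9 CPM. OASL, an enhancer of RIG-I signalling picked here after its value was seen, lay at 0.767 ± 0.191 against 21.6 ± 1.56 CPM.

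Among the higher members, GBP2 (chromosome 1, 89106132 to 89150456), a guanylate-binding GTPase known to respond to interferon gamma, held 231, 232 and 240 CPM against 40.2, 41.1 and 41.1 (log2 fold change 2.52, SE 0.04). IFITM3, a membrane protein that blocks virus entry, lay at 483 ± 27.6 against 156 ± 2.9 CPM and BST2, tetherin, at 432 ± 7.42 against 200 ± 7.31. IFITM3 has close neighbours of similar sequence, so its level is uncertain.

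The letters of an interferon response element, GAAA, any 2 bases and GAAA, were found on either strand in 23 of the 34 promoters available for this list (67.6%), in 2.7% of promoters of tested genes and in 3.6% of all. Among members whose promoter was searched, 7 of 11 at least 2-fold lower held a match, as did 3 of 5 at least 2-fold higher. Matches were thus present on both sides. IFIT3 is shown as the lower member with 2 matches, in capitals, which are read on the opposite strand.
IFIT3 promoter, chr10:89327747-89328046, plus strand: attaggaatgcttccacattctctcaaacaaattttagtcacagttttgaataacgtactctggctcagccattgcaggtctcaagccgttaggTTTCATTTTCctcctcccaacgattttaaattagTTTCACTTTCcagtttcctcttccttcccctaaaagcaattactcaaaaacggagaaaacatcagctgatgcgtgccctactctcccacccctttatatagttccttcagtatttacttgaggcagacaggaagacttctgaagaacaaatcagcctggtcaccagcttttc

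Antigen presentation genes were tested for 12 of 20 members, 8 higher with mutation 1, 2 lower and 2 not called (median 0.70). The share called was 83.3%, beside 83.6% of all genes. B2M, the invariant chain of class I molecules, held 435, 487 and 429 CPM against 205, 217 and 204, and HLA-B lay at 346 ± 15.6 against 163 ± 6.42. CIITA (chromosome 16, 10866222 to 10943021), the master activator of class II genes, was lower, at 8.42, 9.29 and 8.85 CPM against 55.1, 59.5 and 58.7. Class I genes have many near-identical alleles, and TAP1, PSMB8 and HLA-E, which most cells express, were listed at 0 in every library, so levels in this region are uncertain.

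Cytokines of the NF-kB group showed large differences both ways, with 12 of 27 higher, 13 lower and 2 not called. Their median of -0.04 was near the -0.02 of all genes. Called were 92.6% of the list, beside 83.6% of all genes, and 48.1% were at least 2-fold apart, beside 33.9%. CCL2 (chromosome 17, 34255218 to 34257203), which attracts monocytes, held 167, 162 and 162 CPM with mutation 1 and 4.43, 3.5 and 4.11 with mutation 2 (log2 fold change 5.35, SE 0.07, adjusted p = 1.5e-229). CCL2 was near 0 in mutation 3 (0 to 0.0733 CPM) and lay at 15.5, 0.0552 and 0 in wild type. Interleukin 6 (IL6, chromosome 7, 22725884 to 22732002) held 261, 265 and 254 CPM against 19.6, 21.7 and 21.4. IL24, a cytokine of the interleukin 10 family, lay at 46.9 ± 1.02 against 8.91 ± 0.404 CPM, and the NF-kB genes BCL3 (170 ± 6.85 against 50.2 ± 1.49) and NFKB2 (477 ± 14.9 against 225 ± 4.39) were higher. CSF3, the granulocyte growth factor, went the other way at 0.207, 0.263 and 0.235 CPM against 9.06, 8.78 and 7.72. The host of miR-146a, MIR3142HG, was low in the 3 libraries where CCL2 and IL6 were high and CSF3 was low. In mutation 3 MIR3142HG lay at 16.5 to 18.3 CPM and IL6 at 41.7 to 47.9. A link between the host and these cytokines was not tested.

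Of 40 genes of hypoxia and glycolysis, 23 were higher with mutation 1 (41.2% of all genes were), 9 lower (42.4% of all) and 8 not called, with 11 at least 2-fold higher, 3 at least 2-fold lower and a median of 0.29. ADM (chromosome 11, 10304680 to 10307397), the vasodilator adrenomedullin, held 360, 357 and 368 CPM against 22.9, 22.9 and 22.8 (log2 fold change 3.98, SE 0.05, adjusted p = 1.79e-251). VEGFA, the vessel growth factor, held 1010, 1000 and 1030 CPM against 222, 231 and 226, and lay at 1140 in mutation 3 replicate 1. SLC2A3, a glucose transporter, lay at 291 ± 3.85 against 28.1 ± 1.62 CPM, and NDRG1, a stress-responsive gene, at 2960 ± 60.3 against 929 ± 21.9, a call the fit of all 12 libraries did not make (adjusted p = 0.0819). The prolyl hydroxylases that mark HIF for decay were lower, EGLN1 at 38.4 ± 3.64 against 115 ± 4.05 CPM and EGLN3 at 3.54 ± 0.0786 against 18.9 ± 1.67. ANGPTL4, an inhibitor of lipoprotein lipase, was lower at 2.57 ± 0.488 against 28.2 ± 1.64 CPM, in the libraries where LPL was high. The letters ACGTG of a hypoxia response element were searched, again without chromosome 8, where NDRG1 lies. They occurred in 16 of 35 promoters searched for the list (45.7%), in 26.7% of those of tested genes and in 21.6% of all searched.

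**Figure D3:**
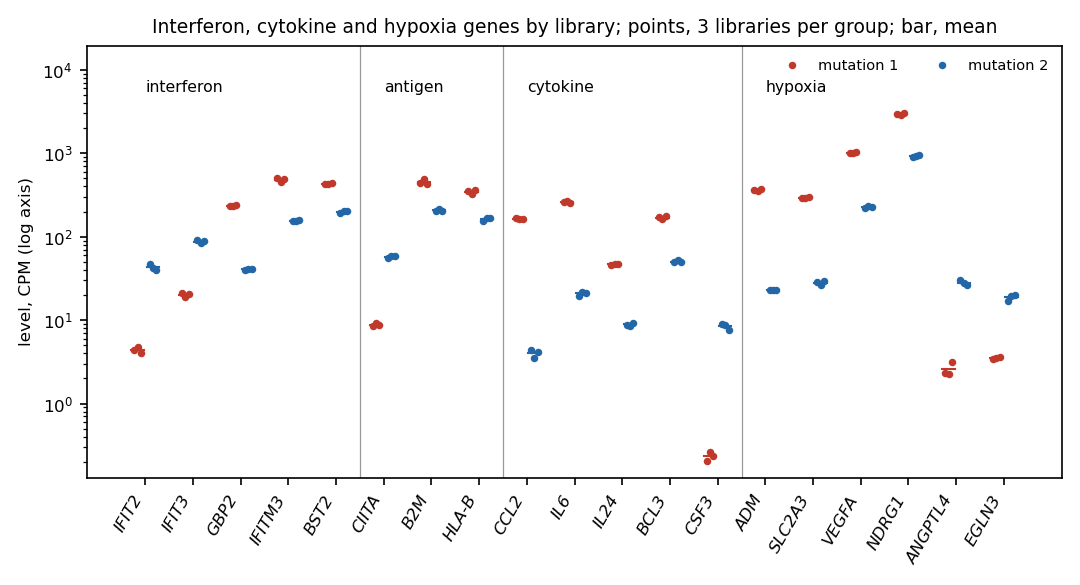
Level of interferon, antigen presentation, cytokine and hypoxia genes in each library, in CPM on a log axis; points are the 3 libraries of mutation 1 (red) and mutation 2 (blue), and bars their means. IFIT2, IFIT3, CIITA, CSF3, ANGPTL4 and EGLN3 lie lower with mutation 1 and the other genes higher, without overlap of the groups.

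Stress genes differed in both directions. Of 22 ATF4 targets, 12 were lower with mutation 1, 9 higher and 1 not called (median -0.70). Among them 63.6% were at least 2-fold apart, beside 33.9% of all genes. The serine synthesis enzymes PSAT1 (31.7, 31.3 and 30.4 CPM against 150, 147 and 144) and PHGDH (10.9 ± 0.996 against 43.7 ± 1.44) were lower. PPP1R15A, the phosphatase subunit that restores translation after stress, was higher, at 783, 746 and 809 CPM against 96.1, 101 and 102, as was CEBPB, a leucine zipper factor (519 ± 12.9 against 77.1 ± 2.11).

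Of 15 endoplasmic reticulum chaperones, 14 were higher with mutation 1 and 1 lower (median 0.50), and 8 were higher under library totals alone or with all 12 libraries in the fit. HSPA5 (chromosome 9, 125234853 to 125241330), the main chaperone of that compartment, held 3720, 3760 and 3760 CPM against 981, 973 and 978 (log2 fold change 1.94, SE 0.03). HSPA5 lay at 1040 to 1090 CPM in mutation 3 and 1260, 922 and 921 in wild type, so mutation 1 alone was high. Of 12 cytosolic heat shock genes, 5 were higher, 5 lower and 2 not called, 83.3% called beside 83.6% of all genes. Their median was 0.05 and became -0.16 under library totals alone. HSPB1, a small heat shock protein, lay at 688 ± 31.3 against 189 ± 6.38 CPM, and the co-chaperone DNAJA1 at 106 ± 4.6 against 300 ± 5.46.

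Of 24 cholesterol genes, 15 were higher, 6 lower and 3 not called (median 0.50, 16.7% at least 2-fold apart beside 33.9% of all genes). INSIG1, which holds back the cholesterol-sensing factor SREBP, held 207, 207 and 194 CPM against 18.9, 24 and 21.9, and the synthesis enzyme MSMO1 lay at 99.4 ± 1.87 against 28.6 ± 0.795. Of 25 lysosomal genes, 21 were higher and 4 lower (median 0.72), among them NPC1, which exports cholesterol from the lysosome, at 302, 305 and 319 CPM against 92.3, 96.7 and 93.2. The V-ATPase subunits split, with ATP6V1A higher (149 ± 3.6 against 51.2 ± 1.6 CPM) and ATP6V0D1 lower (27.8 ± 0.265 against 66.8 ± 4.32). Of 22 NRF2 targets, 8 were higher, 12 lower and 2 not called (median -0.23, 36.4% at least 2-fold apart beside 33.9% of all genes). The ferritin heavy chain FTH1 was higher (2510 ± 148 against 766 ± 20.4 CPM), whereas SLC7A11, the cystine importer (22.3 ± 0.283 against 64.5 ± 2.47), and GCLM, a subunit of glutathione synthesis (62.9 ± 1.35 against 146 ± 1.48), were lower.

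Transcripts of the mitochondrial genome were lower with mutation 1. Their 13 mRNAs made up 1.36%, 1.29% and 1.27% of all counts in the mutation 1 libraries and 5.57%, 4.48% and 4.57% in the mutation 2 libraries. Wild-type replicate 1, the library that stands apart, held 1.34%, the other wild-type libraries 5.04% and 5.09%, and mutation 3 libraries 4.81% to 5.05%. Mutation 1 and mutation 2 did not overlap, and the exact two-sided permutation p was 0.1, the smallest that 3 against 3 allows. Without mutation 2 replicate 1, the highest library, the difference was -3.22 percentage points in place of -3.57. Of the 13, 12 were called lower and 11 were at least 2-fold lower, with a median of -2.29. MT-ND1, a subunit of complex I, held 266, 245 and 245 CPM against 5690, 4550 and 4710 (log2 fold change -4.31, SE 0.12, adjusted p = 2.61e-06). MT-CO1, a subunit of cytochrome oxidase, held 1680, 1640 and 1590 CPM against 8750, 7590 and 7600. MT-ND4L differed least among those called (1000 ± 19.4 against 1170 ± 83.7 CPM) and was not called with all 12 libraries in the fit (adjusted p = 0.717). The mitochondrial 16S ribosomal RNA MT-RNR2 went the other way, at 20200 ± 111 against 16700 ± 831 CPM, also without a call in that fit (adjusted p = 0.488).

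Nuclear genes of oxidative phosphorylation were called about as often as all genes, 82.9% against 83.6%. Of 70, 38 were higher with mutation 1, 20 lower and 12 not called, 3 at least 2-fold higher and 2 at least 2-fold lower, with a median of 0.11; under library totals alone 22 were higher and the median was -0.10. UQCRB of complex III was higher (188 ± 3.47 against 102 ± 5.11 CPM) and NDUFS6 of complex I lower (32.6 ± 1.11 against 66.9 ± 3.9). Of 76 mitochondrial ribosomal protein genes, a set added after results were seen, 16 were higher, 44 lower and 16 not called (median -0.27). At least 2-fold apart were 17.1% of them, beside 33.9% of all genes.

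Cytosolic ribosomal protein genes were higher with mutation 1: 74 of 77 were called higher (41.2% of all genes were) and none lower, although only 8 were at least 2-fold higher (median 0.68). RPL12 held 1300, 1230 and 1310 CPM against 574, 543 and 569, and RPL13A held 2440, 2440 and 2560 against 1130, 1180 and 1160. The class took 5.94% ± 0.133 of counts with mutation 1 and 4.24% ± 0.0584 with mutation 2 (exact permutation p = 0.1). Processed pseudogenes make the counts of single members uncertain.

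Of the noncoding RNAs, those that host snoRNAs were higher with mutation 1. All 14 snoRNA host transcripts tested were called higher, 9 at least 2-fold, with a median of 1.35. GAS5 (chromosome 1, 173863900 to 173868882), a host that is degraded when translated, held 321, 336 and 326 CPM against 82.3, 78.4 and 81.6, and SNHG3 held 383, 403 and 385 against 79.8, 78.1 and 80. Of 27 annotated snoRNA genes, a set added after results were seen, 24 were higher and 1 lower, 23 of the 24 at least 2-fold, and most lie in introns of other genes from which unstranded exon counts do not separate them. Of 9 nuclear-retained long RNAs, 6 were higher, 1 lower and 2 not called (median 0.58, 77.8% called beside 83.6% of all genes). NEAT1 (chromosome 11, 65422774 to 65445540), the scaffold of paraspeckles, held 1410, 1490 and 1460 CPM against 194, 192 and 197 (log2 fold change 2.90, SE 0.03), and MALAT1 held 2350, 2410 and 2290 against 815, 790 and 853. NEAT1 lay at 711 to 729 CPM in mutation 3 and 170, 186 and 186 in wild type.

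Splicing regulators differed in both directions. Of 18 SR proteins and their kinases, 6 were higher, 10 lower and 2 not called (median -0.18). The 3 at least 2-fold higher were CLK1, CLK3 and CLK4. At least 2-fold apart were 16.7% of this list, beside 33.9% of all genes. CLK1 held 216, 227 and 210 CPM against 40.9, 41.6 and 39.7, CLK3 lay at 181 ± 8.94 against 63.2 ± 1.6 and CLK4 at 51.2 ± 0.97 against 17.3 ± 1.42. SRPK1, the cytoplasmic SR kinase, was lower at 116 ± 7.62 against 201 ± 6.4 CPM. Of 10 replication-dependent histone genes, whose transcripts mostly lack a poly(A) tail, 7 were higher, 1 lower and 2 not called (median 1.27). The share called was 80.0%, beside 83.6% of all genes. H1-2 lay at 27.9 ± 0.865 against 8.62 ± 0.22 CPM, and H4C3 was the lower member at 0.284 ± 0.026 against 1.72 ± 0.319.

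**Figure D4:**
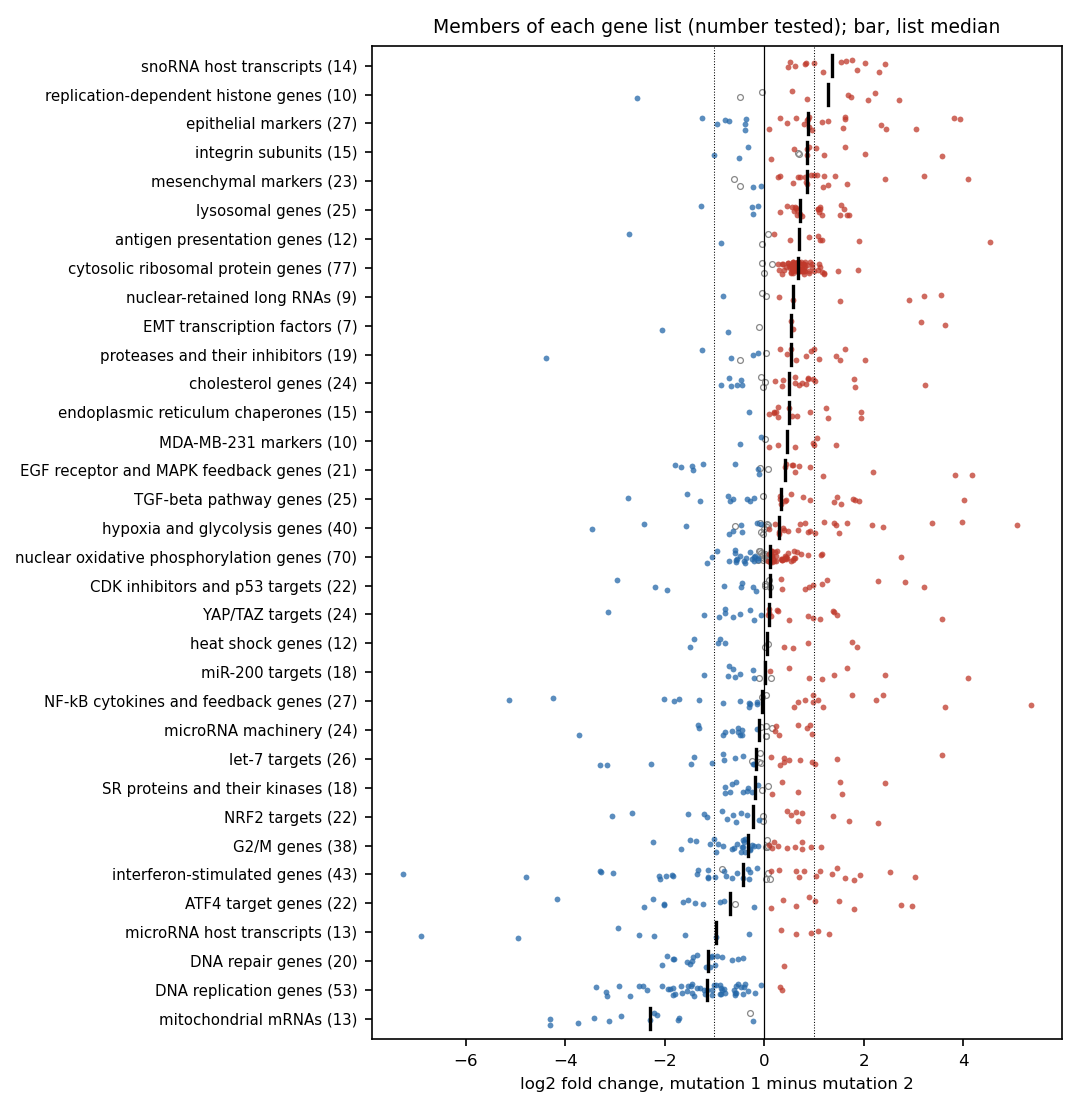
Log2 fold change of mutation 1 minus mutation 2 (horizontal) for every tested member of each gene list with at least 7 tested members, lists ordered by their median (bar). Red and blue points were called higher and lower with mutation 1, open points were not called, and dotted lines mark 2-fold; snoRNA hosts have the highest median (1.35) and mitochondrial mRNAs the lowest (-2.29).

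Differences were also described by the structure of genes, in sets chosen after results were seen. Of 163 nuclear protein-coding genes with 1 exon, 39.3% were called at least 2-fold lower with mutation 1, beside 17.8% of all genes, and 15.3% at least 2-fold higher, beside 16.1%. All genes include noncoding ones here. Of the 12202 protein-coding genes tested, 2104 were called at least 2-fold lower and 1683 at least 2-fold higher. The share at least 2-fold lower was 28.9% of 901 genes with 2 to 3 exons, 18.1% of 4909 with 4 to 9, 14.9% of 4218 with 10 to 19 and 12.6% of 1998 with 20 or more. The share at least 2-fold higher was at most 15.3% in each of these classes. Median log2 fold changes were -0.70, -0.26, -0.02, -0.05 and -0.00 in the same order.

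Of 420 zinc finger genes with ZNF symbols, 128 (30.5%) were at least 2-fold lower and 34 (8.1%) at least 2-fold higher (median -0.33). By annotated type, 79 sense-intronic transcripts had a median of 0.77 and 564 antisense transcripts one of 0.31. For 196 processed pseudogenes it was 0.50 (92 higher, 29 lower), and for 93 transcripts of the provisional type TEC 0.61. The median was 0.16 for 118 processed transcripts, 0.06 for lincRNAs (158 higher, 140 lower) and -0.00 for 167 transcribed unprocessed pseudogenes, while 12202 protein-coding genes had one of -0.05. Reads of such transcripts and of their overlapping partners cannot be told apart in unstranded counts.

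**Figure D5:**
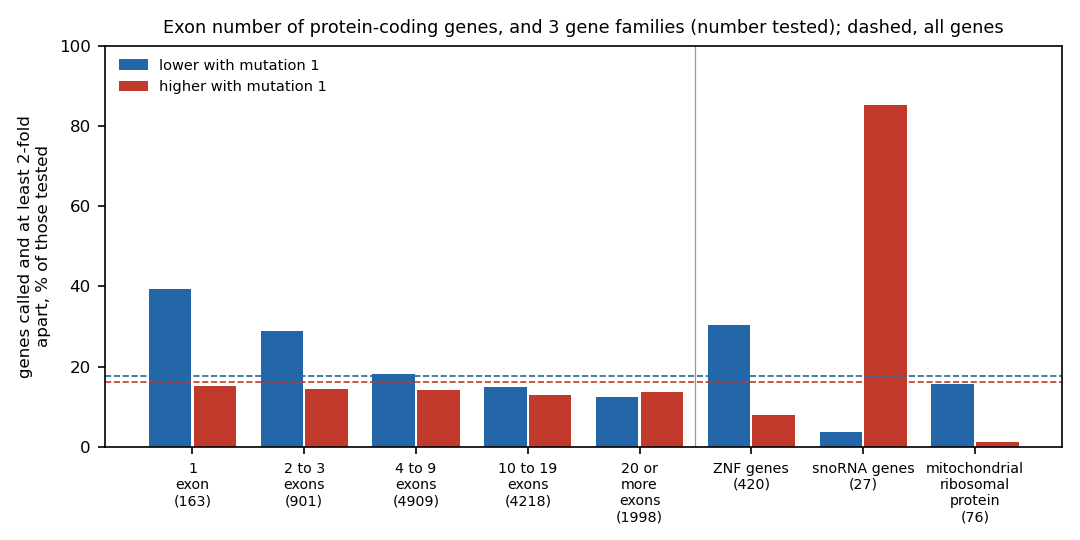
Percent of tested genes called and at least 2-fold lower (blue) or higher (red) with mutation 1, for protein-coding genes by number of exons and for 3 gene families. Dashed lines give the percent over all genes tested, noncoding ones included (17.8% lower, 16.1% higher). The blue bars fall from 39.3% for genes with 1 exon to 12.6% for genes with 20 or more, and snoRNA genes stand at 85.2% higher.

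Genes higher and lower with mutation 1 lay on every chromosome, but some stretches of neighbouring genes moved mostly in the same direction. Chromosome medians lay between -0.19 (chromosome 10) and 0.17 (chromosome X), apart from the mitochondrial genome at -2.24. In runs of 30 neighbouring tested genes the median lay between -0.56 and 0.61 for 95% of 13351 runs. The lowest run, chr19:57900296-58538911, had a median of -1.09 with 16 genes at least 2-fold lower and 1 higher. It holds the zinc finger genes ZNF606 (-2.02), ZNF544 (-1.83) and ZNF132 (-2.05). The highest, chr19:48455509-49211836, had a median of 1.52 with 16 genes at least 2-fold higher and 2 lower. It holds PPP1R15A and FTL, described above, and DBP, a circadian transcription factor, at 116 ± 0.543 against 5.91 ± 1.22 CPM. Runs of 60 genes reached -0.92 (chr6:89146050-111278742, 49 genes below 0 and 11 above) and 0.85 (chr19:47220822-49526333) at their extremes. The next stretch of chromosome 6, chr6:111299028-132817564, had a median of -0.60, whereas chr6:25279078-34286768 had one of 0.82. On chromosome 10, chr10:118692361-132942823 had a median of -0.74 and chr10:97614553-102477045 one of 0.70. The cause of these runs was not tested.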

How the data were processed

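RNA-seq libraries of MDA-MB-231 cells were analysed from the read counts per gene that the authors deposited. Per the file headers, featureCounts 2.0.6 made these whole-number counts without strand and with a minimum mapping quality of 10. Per the submitters' processing notes, reads were checked with FastQC 0.11.8 and trimmed with cutadapt 1.9.1; STAR, DESeq2 and SAMtools are also named, in versions not given in the sources used here. Of 64252 gene IDs, 41481 (64.6%) were paired with a symbol, and these hold 99.48% of counts; 56591 are in GENCODE v29, and 34677 were at 0 in all 6 libraries. The 6 libraries hold 13507341 to 16789948 counts, and intervals and floors cover counting error only.

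Mutation 1 and mutation 2 libraries (3 each, grouped by the treatment label) were compared with edgeR 4.0.16 (quasi-likelihood test, limma 3.58.1, R 4.3.3) after trimmed-mean scaling and filterByExpr (minimum count 10, total 15), with 4 residual degrees of freedom. Adjusted p-values are Benjamini-Hochberg over 14256 genes, and a call needs an adjusted p under 0.05. CPM were computed from the counts. SEs are of the fitted log2 fold change. Shares of counts were compared with exact two-sided permutation tests. The calculation was tested on simulated data.

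Genes were described in 36 lists of 952 members, of which 2 had no matching ID. Named are, among called genes without overlap of the groups and with a mean of 5 CPM or more in one of them, the 12 largest fold changes each way and the 6 largest CPM differences each way. Up to 5 called members per list with the lowest p are also named, with up to 3 of the other direction, and any member of the machinery, EMT and marker lists. The members and lists were chosen with earlier results of these data known; sets by exon number and gene family were added after values were seen. Alternatives were DESeq2 1.42.0, other scalings, no filter, more libraries in the fit, and leaving out each library. XBP1, TAP1, TAP2, PSMB8, PSMB9 and HLA-E were listed at 0 in all 12 libraries, so a 0 is not shown to be absence.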

Additional observations from a re-analysis of the deposited data

How the results depend on the processing

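With mutation 1 against mutation 2, 11917 genes were called, 5869 higher and 6048 lower. The test against a 1.5-fold difference called 6590, 3208 higher and 3382 lower. The other counts were 9879 with all 12 libraries in the fit, 11478 with DESeq2 and 13374 without a filter, and 11744 to 12020 when each library was left out in turn. With each library left out, 5015 to 5144 genes were called at least 2-fold apart, beside 4832 with all 6 libraries. The filter on low counts was recomputed for each such set.

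Library totals alone lowered the share of called genes that were higher from 49.2% to 39.3%. In that setting DICER1 was called lower (-0.26), and DDX6 (-0.16), CNOT1 (-0.18), ADAR (-0.17), KRT18 (-0.11) and CAV1 (-0.19) changed sign. List members called higher numbered 22 for nuclear oxidative phosphorylation, 8 for endoplasmic reticulum chaperones and 8 for YAP/TAZ targets. With all 12 libraries in the fit, those lists had 22, 8 and 9, miR-200 targets had 5 and epithelial markers 11. The lowest and highest runs of genes had medians of -1.29 and 1.32 under library totals, and -0.92 and 0.85 in runs of 60. The cause was not tested.

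The mitochondrial difference lay between -3.76 and -3.22 percentage points with each library left out. Of the values for single genes under alternatives, 3425 kept direction and side of the threshold, 58 lost the call, 4 gained one and 5 changed sign. No paired analysis was possible because the mutant libraries carry no replicate numbers in the labels.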
